A study of Mus musculus with 18 samples.

Results

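The 4 genes of the CXCR3 chemokine axis, the ligand genes Cxcl9, Cxcl10 and Cxcl11 and the receptor gene Cxcr3, were followed in whole B16F10 tumors treated with a STING agonist. They were read by gene identifier as 4 of the 50600 rows of the count table, and all 4 passed the filter on low counts that left 17110 genes for testing. B16F10 is a pigmented melanoma line of C57BL/6 origin, here 1 line implanted under the skin of C57BL/6 mice (young females, whose age at harvest is not given in the sources used here), so every tumor holds melanoma cells and the host's stroma and leukocytes. RNA was sequenced from 18 tumors, 2 in each of 9 groups, collected 24 h after the last intratumoral (IT) injection. The agonist, called CL656 in the sample titles and CDN2 in the study, is a cyclic dinucleotide (CDN). After 1 dose the groups were PBS, unloaded extracellular vesicles (EVs), exoCDN2 at 0.1 µg, CDN2 at 20 µg and CDN2 at 100 µg. After 2 doses, 3 days apart, they were PBS, exoCDN2 at 0.1 µg, CDN2 at 20 µg, and CDN2 in an amount the labels do not give. The description of treatments in the labels names 20 µg as the amount of CDN2 and not 100 µg, which comes from the sample titles with a dose number of 1, so the 24 h interval is taken for that group from the general description. The exoCDN2 preparation is CDN2 loaded into EVs purified from human HEK293 cells, and the unloaded EVs carry no agonist. The study calls the tumors of a group biological replicates and representative of a larger set, without naming 100 µg or an unlabelled amount there. The labels tie no tumor to a mouse. The p-values of the main fit rest on the spread between the 2 tumors of a group, estimated jointly over all 9 groups. They do not measure the spread of the compared groups alone.

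CXCL9, CXCL10 and CXCL11 are small secreted chemokines that signal through a shared receptor, CXCR3. This receptor is carried mainly by activated T cells, memory T cells and NK cells and draws them toward the ligand. CXCL9 is known chiefly as a target of interferon-γ, made by macrophages and dendritic cells, while CXCL10 and CXCL11 answer to type I interferon as well and can be made by many cell types. STING, a sensor of cyclic dinucleotides, drives Ifnb1 through IRF3 and NF-κB, which places these ligands downstream of the agonist by a known route.

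The ligand genes lie side by side on the minus strand of chromosome 5 in GRCm38. Cxcl9 spans chr5:92321347-92328079, Cxcl10 chr5:92346638-92348889 and Cxcl11 chr5:92359544-92365485. The annotation lists Cxcl11 as a polymorphic pseudogene, since the C57BL/6 allele is known to make no functional CXCL11 protein, so its values are those of a transcript. Art3, on the opposite strand, runs through Cxcl10 and Cxcl11, and the sources used here do not say whether the libraries keep the strand. Cxcr3 spans chrX:101731535-101734269 on the minus strand and overlaps no annotated gene.

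Promoter windows of 300 bases, 250 before and 50 after the annotated start, were found for 3 of the 4 genes in RefSeq (GRCm38.p6) and are shown because the ligands and the receptor changed in opposite directions after 2 doses of CDN2 20 µg. Capitals mark matches, on either strand, to the interferon-stimulated response element core GAAANNGAA and to the NF-κB consensus.
Cxcl9, chr5:92328030-92328329, minus strand: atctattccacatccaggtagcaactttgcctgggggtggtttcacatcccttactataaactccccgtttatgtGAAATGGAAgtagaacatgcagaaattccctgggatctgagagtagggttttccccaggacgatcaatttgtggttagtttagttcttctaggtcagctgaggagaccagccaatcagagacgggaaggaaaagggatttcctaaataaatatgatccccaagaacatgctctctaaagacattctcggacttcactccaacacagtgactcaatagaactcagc
Cxcl10, chr5:92348840-92349139, minus strand: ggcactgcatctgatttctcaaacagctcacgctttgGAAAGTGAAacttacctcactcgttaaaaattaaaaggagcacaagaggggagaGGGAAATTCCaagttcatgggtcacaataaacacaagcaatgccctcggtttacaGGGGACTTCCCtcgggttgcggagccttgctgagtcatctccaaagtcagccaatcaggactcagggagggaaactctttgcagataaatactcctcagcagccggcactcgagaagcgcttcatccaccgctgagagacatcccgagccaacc
Cxcr3, chrX:101734098-101734397, minus strand: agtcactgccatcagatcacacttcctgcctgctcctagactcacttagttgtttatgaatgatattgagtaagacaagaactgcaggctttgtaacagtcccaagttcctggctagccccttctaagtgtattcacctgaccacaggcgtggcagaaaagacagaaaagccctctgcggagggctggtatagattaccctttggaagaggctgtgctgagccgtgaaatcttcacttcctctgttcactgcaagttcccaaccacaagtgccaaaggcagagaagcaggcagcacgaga
The Cxcl9 window held 1 interferon element core, starting 175 bases before the start. The Cxcl10 window held 1 such core, 213 bases before the start, and 2 separate NF-κB stretches, the second a run of overlapping matches on both strands. The Cxcr3 window held none of these letters. Of 32851 windows of the same length, 8.56% held the interferon element core and 8.46% the NF-κB consensus, and 0.521% held 2 or more separate NF-κB stretches. A match is a stretch of letters and not a measured binding site.

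Total expected counts ran from 21608895, in a tumor given 2 doses of CDN2 20 µg (replicate 1), to 65983630. The 10 most abundant genes took 6.39% to 14.3% of the counts, the highest share in replicate 2 of the unlabelled amount. The melanoma markers (Mlana, Pmel, Tyr, Tyrp1, Dct, Sox10 and Mitf) summed to between 7409 and 25110.0 CPM (expected counts scaled to library size), so the labelled tissue was present in all 18 tumors. The lowest sums, 7409 and 12880.0 CPM, were those of the tumors given 2 doses of CDN2 20 µg. Levels below are CPM on TMM-scaled library sizes. A gene was called changed where its ratio was over 2 and edgeR's quasi-likelihood test put the adjusted p under 0.05.

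Cxcl10, the ligand with the highest level, was high in every tumor 24 h after a single dose of agonist. It read 2561 and 2508 CPM with exoCDN2, 1587 and 2273 CPM with CDN2 20 µg, and 2398 and 2227 CPM with CDN2 100 µg. In the same set it read 71.5 and 75.3 CPM with PBS and 102 and 38.2 CPM with unloaded EVs. The agonist tumors lay far above both controls, and the EV tumors spread to either side of the PBS tumors. After 2 doses Cxcl10 read 351 and 263 CPM with exoCDN2, 1095 and 770.5 CPM with CDN2 20 µg, 80.8 and 85.5 CPM with the unlabelled amount, and 13.7 and 9.09 CPM with PBS. By mean level the order was exoCDN2, CDN2 100 µg and CDN2 20 µg after 1 dose, then CDN2 20 µg, exoCDN2 and the unlabelled amount after 2 doses, then PBS and unloaded EVs after 1 dose, and PBS after 2 doses last. The 20 and 100 µg groups of 1 dose overlapped each other, as did PBS and EVs after 1 dose, and the other neighbours in this order did not.

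Cxcl9 followed another order, with its highest levels after 2 doses. It read 433 and 217 CPM with 2 doses of CDN2 20 µg, 302 and 229.5 CPM with 2 doses of exoCDN2, and 52.0 and 68.1 CPM with the unlabelled amount. After 1 dose it read 120.4 and 188 CPM with exoCDN2, 139 and 205 CPM with CDN2 20 µg, and 80.5 and 93.2 CPM with CDN2 100 µg. Its controls were far apart. Cxcl9 stood at 41.9 and 52.9 CPM with PBS after 1 dose, at 9.05 and 14.8 CPM with unloaded EVs, and at 3.49 and 2.10 CPM with PBS after 2 doses. The groups of 20 µg and exoCDN2 overlapped within each dose number, and the unlabelled amount overlapped PBS after 1 dose.

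Cxcl11, the least abundant ligand transcript, was close to absent in the controls. It read 0.241 and 0.396 CPM with PBS after 1 dose, 1.04 and 0.400 CPM with unloaded EVs, and 0.143 and 0.153 CPM with PBS after 2 doses, where it rested on 7 expected counts in each tumor. With 1 dose it read 34.6 and 40.4 CPM with exoCDN2, 20.6 and 36.2 CPM with CDN2 20 µg, and 18.2 and 19.3 CPM with CDN2 100 µg. With 2 doses it read 20.9 and 11.4 CPM with exoCDN2, 96.0 and 37.5 CPM with CDN2 20 µg, and 1.01 and 1.76 CPM with the unlabelled amount. Every tumor given a labelled amount of agonist was above every control, and the tumors of unlabelled amount overlapped the EV tumors. By mean level the order was 2 doses of CDN2 20 µg, exoCDN2, CDN2 20 µg and CDN2 100 µg after 1 dose, then 2 doses of exoCDN2, and the overlaps between neighbours were those of the first with the second, the second with the third, and 100 µg with 2 doses of exoCDN2.

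Cxcr3, the receptor gene, ran the other way. It read 5.60 and 5.17 CPM with PBS, 6.63 and 5.35 CPM with unloaded EVs, 2.93 and 3.91 CPM with exoCDN2, 2.85 and 1.69 CPM with CDN2 20 µg, and 2.98 and 2.37 CPM with CDN2 100 µg after 1 dose. After 2 doses it read 7.53 and 9.63 CPM with PBS, 2.94 and 5.31 CPM with exoCDN2, 1.01 and 1.86 CPM with CDN2 20 µg, and 6.36 and 6.37 CPM with the unlabelled amount. The highest levels were in PBS tumors of 2 doses and the lowest after 2 doses of CDN2 20 µg, where the tumor at 1.01 CPM rested on 18 expected counts. In order of mean level, PBS after 2 doses stood alone, and each group below it (the unlabelled amount, EVs, PBS after 1 dose, exoCDN2 after 2 doses and 1, CDN2 100 µg, CDN2 20 µg after 1 dose and 2) overlapped its next neighbour. Whether a lower value reflects fewer cells that express the gene or less RNA per cell cannot be told apart in whole-tumor RNA.

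**Figure D1:**
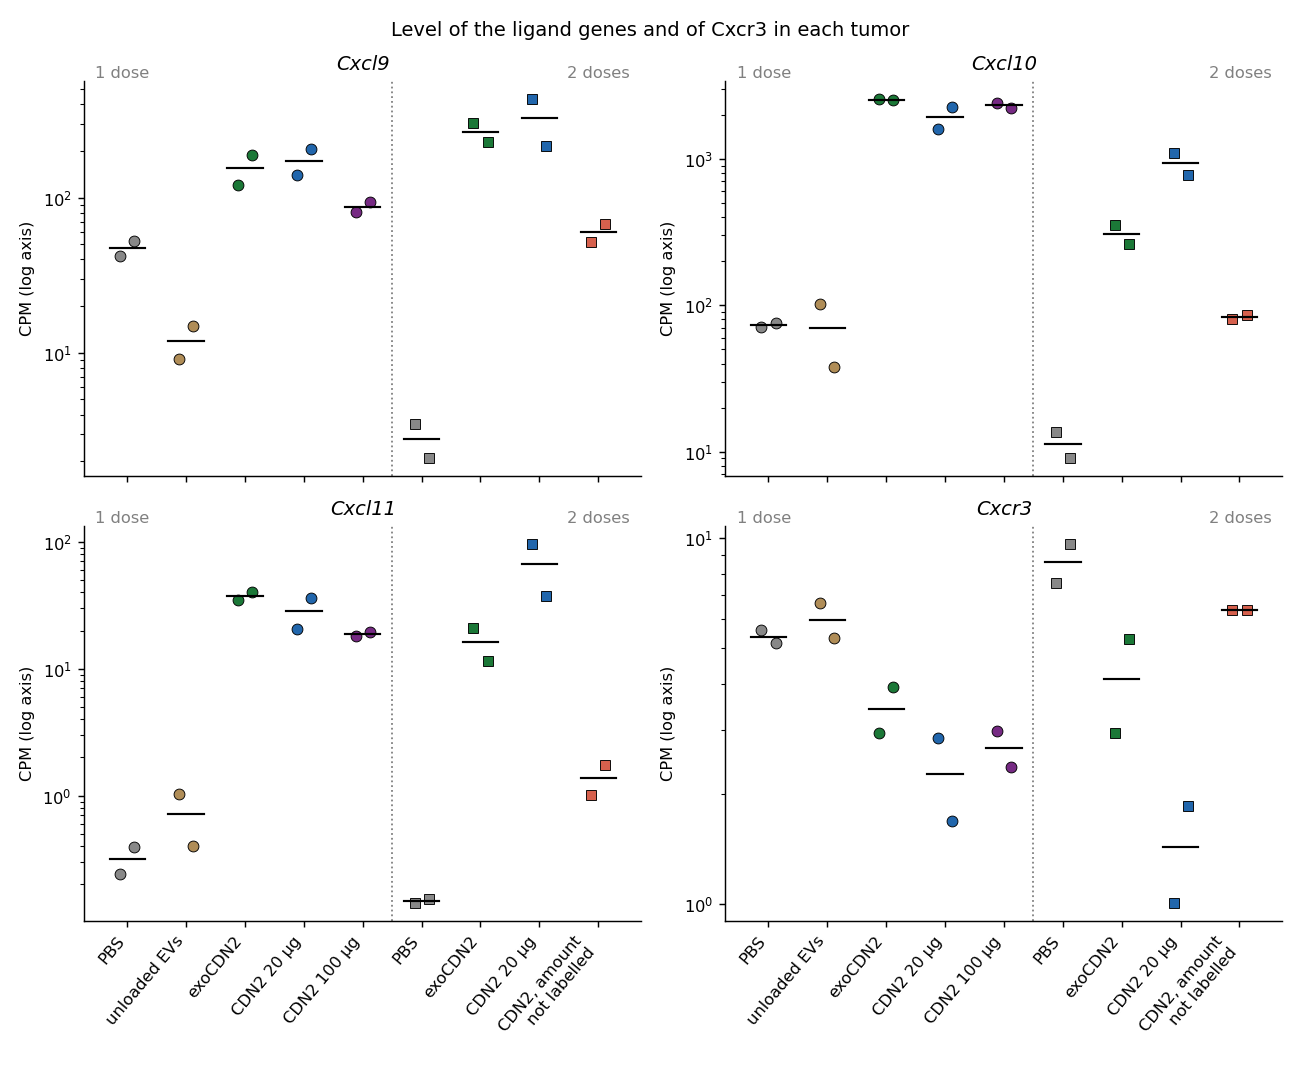
CPM (log axis) of Cxcl9, Cxcl10, Cxcl11 and Cxcr3 in each tumor, by treatment, with circles for 1 dose, squares for 2 doses and a line at the mean of the 2 tumors. The ligands are higher with agonist than with PBS of the same dose number, up to 2561 CPM for Cxcl10, while Cxcr3 is highest, 7.53 and 9.63 CPM, in PBS tumors after 2 doses.

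The first comparison asked how a single dose of agonist changed the axis against PBS. With exoCDN2, 3 of the 4 genes were called, all ligands and all higher, where 2.81% of all tested genes were called. Cxcl11 rose by a log2 fold change of 6.86 ± 0.61 (SE; adjusted p = 1.87e-05), Cxcl10 by 5.11 ± 0.42 (adjusted p = 1.25e-05) and Cxcl9 by 1.70 ± 0.36 (adjusted p = 0.0181). Cxcr3 was not called, at -0.66 ± 0.34 (adjusted p = 0.427), although both exoCDN2 tumors lay below both PBS tumors. With CDN2 20 µg the same 3 ligand genes were called higher, where 3.26% of genes were called, Cxcl11 by 6.46 ± 0.61, Cxcl10 by 4.72 ± 0.41 and Cxcl9 by 1.86 ± 0.37 (adjusted p = 0.00982). Cxcr3 stood at -1.24 ± 0.35 and missed the threshold (adjusted p = 0.0743), and DESeq2 called it lower (adjusted p = 0.0153). With CDN2 100 µg, 2 genes were called, where 2.5% of genes were. Cxcl10 rose by 4.98 ± 0.41 and Cxcl11 by 5.86 ± 0.60, while Cxcl9 at 0.87 ± 0.36 (adjusted p = 0.272) and Cxcr3 at -1.01 ± 0.35 (adjusted p = 0.169) were not called. These comparisons share the same PBS tumors. The Cxcl9 calls lost the threshold when either PBS tumor or replicate 2 of the agonist group was left out, at values of 1.35 to 1.88 and an adjusted p of up to 0.227 for exoCDN2, and 1.55 to 2.04 and up to 0.149 for 20 µg.

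The unloaded EVs tested whether the carrier alone moved these genes. With edgeR, 0 of the 4 genes and 0% of all genes were called against PBS, while 515 genes had an unadjusted p under 0.05 and DESeq2 called 34. Cxcl9 stood at -1.99 ± 0.37 (95% interval -2.79 to -1.19, unadjusted p = 0.000107, adjusted p = 0.228), with both EV tumors below both PBS tumors. DESeq2 called it lower, at -1.98 (adjusted p = 0.00074). With the PBS tumors of 1 and 2 doses pooled, Cxcl9 stood at -1.07 ± 0.92 and edgeR did not call it. The EV tumors, at 9.05 and 14.8 CPM, lay above the PBS tumors of 2 doses, at 3.49 and 2.10 CPM. Cxcl10 differed by -0.06 (95% interval -0.82 to 0.69), Cxcl11 by 1.18 (-0.19 to 2.54) and Cxcr3 by 0.15 (-0.58 to 0.88). Against these EV tumors, all 3 ligand genes were higher with exoCDN2, where 2.92% of genes were called. Cxcl9 rose by 3.69 ± 0.40 (adjusted p = 7.37e-05), Cxcl10 by 5.17 ± 0.42 and Cxcl11 by 5.68 ± 0.57, and Cxcr3 was not called, at -0.81 ± 0.34 (adjusted p = 0.319).

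The preparations and amounts were then set against each other after 1 dose. Between exoCDN2 at 0.1 µg and CDN2 at 20 µg, edgeR called 0 of the 4 genes, where 0.24% of genes were called, and 0 of the 4 had an unadjusted p under 0.05. DESeq2 also called 0 of the 4. The differences, exoCDN2 less free CDN2, were -0.15 for Cxcl9 (95% interval -0.91 to 0.61), 0.39 for Cxcl10 (-0.36 to 1.15), 0.40 for Cxcl11 (-0.54 to 1.35) and 0.59 for Cxcr3 (-0.17 to 1.34). Between 100 and 20 µg of CDN2, edgeR and DESeq2 each called 0 of the 4 genes, where edgeR called 0.491% of all genes. Cxcl9 was the 1 gene of the 4 with an unadjusted p under 0.05, at -0.98 (95% interval -1.75 to -0.22, adjusted p = 0.237), and both 100 µg tumors were below both 20 µg tumors. The differences were 0.26 for Cxcl10 (-0.49 to 1.01), -0.60 for Cxcl11 (-1.55 to 0.36) and 0.23 for Cxcr3 (-0.52 to 0.99).

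After 2 doses the ligands were again higher than in PBS tumors of the same schedule. With exoCDN2, 3 of the 4 genes were called, where 11.2% of all genes were called. Cxcl9 rose by 6.57 ± 0.46 (adjusted p = 6.72e-07), Cxcl11 by 6.74 ± 0.65 and Cxcl10 by 4.75 ± 0.41. Cxcr3 stood at -1.05 ± 0.34 and missed the threshold narrowly (adjusted p = 0.052), and DESeq2 called it lower (adjusted p = 0.0163). Without exoCDN2 replicate 2, the tumor at 5.31 CPM, edgeR also called it, at -1.54 (adjusted p = 0.0251). With CDN2 20 µg all 4 genes were called, where 30.4% of genes were called. Cxcl11 rose by 8.79 ± 0.68, Cxcl9 by 6.85 ± 0.46 and Cxcl10 by 6.36 ± 0.44, and Cxcr3 fell, at -2.54 ± 0.37 (adjusted p = 0.000175). The Cxcr3 call held without each tumor in turn, with values from -3.12 to -2.22 and an adjusted p of at most 0.002. With the unlabelled amount of CDN2, the 3 ligand genes were called higher, where 0.959% of genes were called, Cxcl9 by 4.42 ± 0.42, Cxcl10 by 2.87 ± 0.38 and Cxcl11 by 3.19 ± 0.68 (adjusted p = 0.0412), and Cxcr3 stood at -0.43 ± 0.34 (adjusted p = 0.706). The Cxcl11 call of that group was lost without either PBS tumor or without its replicate 2, with an adjusted p of up to 0.403. Its ligand calls hold only against PBS tumors of 2 doses. With the 4 PBS tumors of both schedules pooled, no gene of the 4 was called with edgeR, where Cxcl9 stood at 1.26, Cxcl10 at 0.97 and Cxcl11 at 2.53. Against the pooled PBS tumors the calls of the other 2-dose groups held for the ligands, with smaller values. Cxcl9 stood at 3.40 and Cxcl10 at 2.86 with exoCDN2, and at 3.69 and 4.46 with CDN2 20 µg.

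**Figure D2:**
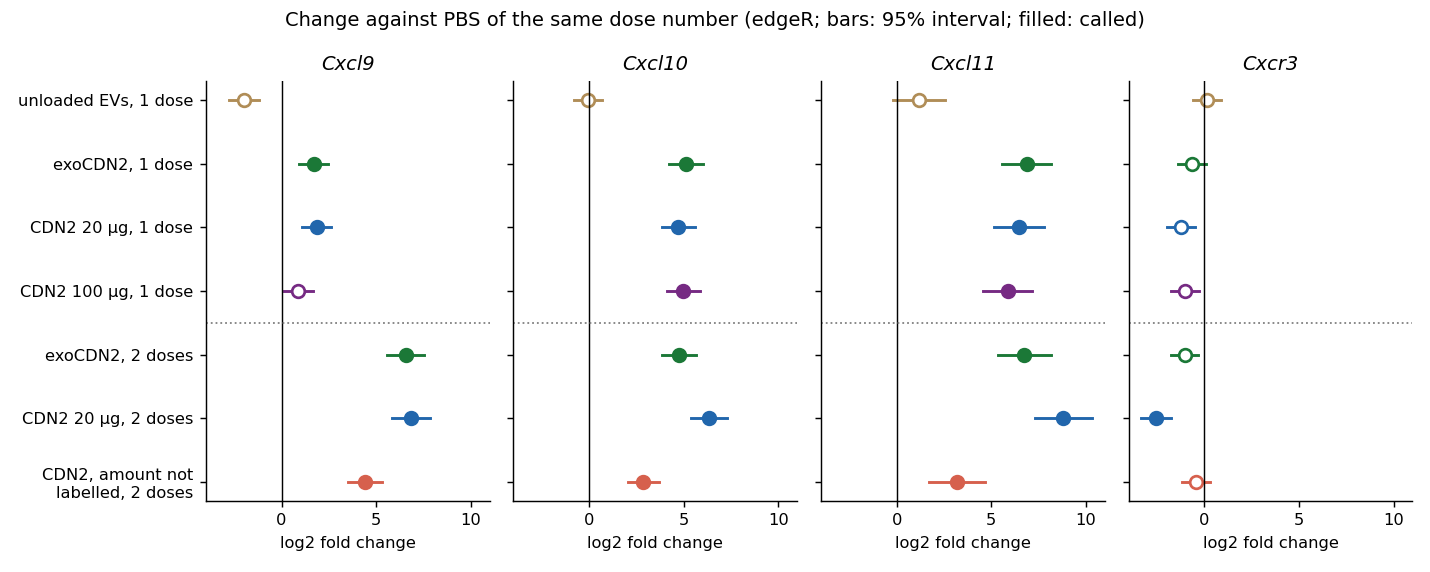
Log2 fold change of each gene against PBS of the same dose number (horizontal axis), by treatment, as points with 95% intervals from edgeR, filled where the gene was called. Ligand points lie to the right of 0 in all agonist groups, from 0.87 for Cxcl9 with 100 µg to 8.79 for Cxcl11 with 2 doses of 20 µg, and Cxcr3 is filled for 1 treatment, at -2.54.

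Between the preparations after 2 doses, exoCDN2 tumors held less Cxcl10 and Cxcl11 and more Cxcr3 than tumors given CDN2 20 µg, and the 3 genes were called where 19.2% of genes were. Cxcl10 differed by -1.60 ± 0.36 (adjusted p = 0.00739), Cxcl11 by -2.04 ± 0.46 (adjusted p = 0.00738) and Cxcr3 by 1.49 ± 0.37 (adjusted p = 0.0109), while Cxcl9 differed by -0.29 (95% interval -1.05 to 0.47). These calls rest on single tumors and on the shared spread. Leaving out replicate 1 of CDN2 20 µg, the shallowest library, or replicate 2 of exoCDN2 left 0 of the 4 genes called, with adjusted p from 0.0681 to 0.111, and so did a fit on these 4 tumors alone. Tumors of unlabelled amount differed from those given 2 doses of CDN2 20 µg in all 4 genes, where 25.2% of genes were called. Their Cxcl9 was lower by a log2 fold change of -2.43 ± 0.37, their Cxcl10 by -3.49 ± 0.39 and their Cxcl11 by -5.60 ± 0.55, and their Cxcr3 was higher by 2.11 ± 0.37 (adjusted p = 0.000919).

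The schedules were compared next. The 2-dose tumors were collected 24 h after a further injection given 3 days after the first, so dose number, tumor age and day of collection cannot be told apart. In PBS tumors, 2 of the 4 genes were called lower after 2 injections than after 1, where 1.27% of genes were called. Cxcl9 fell, at -4.08 ± 0.41 (adjusted p = 0.000122), and Cxcl10 fell, at -2.69 ± 0.38 (adjusted p = 0.0014), while Cxcl11 at -1.10 ± 0.80 and Cxcr3 at 0.67 ± 0.34 were not called. Without replicate 2 of the later PBS tumors, 1 of the 4 genes was called. In exoCDN2 tumors 1 gene was called, where 7.32% of genes were. Cxcl10 fell, at -3.04 ± 0.38 (adjusted p = 0.000801), with Cxcl9 at 0.78 ± 0.35 (adjusted p = 0.189), Cxcl11 at -1.22 ± 0.45 (adjusted p = 0.105) and Cxcr3 at 0.27 ± 0.34. In CDN2 20 µg tumors 2 genes were called, where 20.5% of genes were. Cxcl10 fell, at -1.05 ± 0.35 (adjusted p = 0.0367), and Cxcl11 rose, at 1.23 ± 0.45 (adjusted p = 0.049), with Cxcl9 at 0.92 ± 0.36 (adjusted p = 0.063) and Cxcr3 at -0.62 ± 0.37. Leaving out replicate 2 of the 1-dose tumors or replicate 1 of the 2-dose tumors left 0 of these calls, and leaving out replicate 1 of the 1-dose tumors left Cxcl10 alone. Without replicate 2 of the 2-dose tumors Cxcl10 was not called, at -0.85 (adjusted p = 0.124), Cxcl11 was, and Cxcl9 was called higher, at 1.30 (adjusted p = 0.00904). The Cxcl10 call thus held in 1 of these 4 fits. The Cxcl11 call was also lost with same-numbered tumors treated as a block, and both calls were lost in a fit of only the groups compared.

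The change against PBS itself was tested for a difference between the schedules. With exoCDN2, Cxcl9 was the 1 gene called, where 6.69% of genes were: its change against PBS was larger after 2 doses by 4.86 ± 0.54 (adjusted p = 0.00019). The difference was -0.36 for Cxcl10 (95% interval -1.43 to 0.72), -0.11 for Cxcl11 (-2.42 to 2.20) and -0.40 for Cxcr3 (-1.43 to 0.64). With CDN2 20 µg, Cxcl9 at 5.0 ± 0.54 (adjusted p = 0.000344) and Cxcl10 at 1.64 ± 0.50 (adjusted p = 0.0375) were called, where 15.7% of genes were. Cxcl11 at 2.33 ± 0.91 (adjusted p = 0.0902) and Cxcr3 at -1.30 ± 0.50 (adjusted p = 0.0882) were not, but both were called without replicate 2 of the 2-dose CDN2 20 µg tumors, Cxcl11 at 2.83 (adjusted p = 0.0173) and Cxcr3 at -1.88 (adjusted p = 0.0195). Beside these Cxcl9 values, exoCDN2 and CDN2 20 µg tumors differed between the schedules by 0.78 and 0.92, and PBS tumors by -4.08. Of 10 macrophage and monocyte markers, the schedule difference was called higher for 7 with exoCDN2 and 6 with CDN2 20 µg. The shares of all genes called were 6.69% and 15.7%, and the marker medians were 2.23 and 1.82. In PBS tumors their median between the schedules was -0.83, with none called. The part of these cells in the Cxcl9 values was not tested. The Cxcl10 call with 20 µg was lost without either PBS tumor of 1 dose, without replicate 2 of the later PBS tumors, and without replicate 1 of either CDN2 20 µg group, with an adjusted p of up to 0.155.

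The balance of the 2 main ligands shifted between the schedules. Levels of different genes were compared per length, as TPM (abundance scaled to length and depth) from the longest annotated transcript. After 1 dose of agonist, Cxcl10 exceeded Cxcl9 by 27.5- and 17.2-fold with exoCDN2, by 14.8- and 14.4-fold with CDN2 20 µg, and by 38.6- and 30.9-fold with CDN2 100 µg. After 2 doses it exceeded Cxcl9 by 1.51- and 1.49-fold with exoCDN2, by 3.28- and 4.61-fold with CDN2 20 µg, and by 2.01- and 1.63-fold with the unlabelled amount. The agonist groups of the 2 schedules did not overlap in this ratio. In the controls it was 2.21 and 1.84 with PBS after 1 dose, 14.6 and 3.33 with unloaded EVs, and 5.08 and 5.60 with PBS after 2 doses. The longest Cxcl10 transcript keeps an intron. With the longest coding transcript the same ratios ran from 23.7 to 63.6 after 1 dose of agonist and from 2.45 to 7.59 after 2 doses of exoCDN2 or 20 µg, so the values depend on the length and the separation of these groups does not. On the TPM scale mean Cxcl9 was 218 after 2 doses of exoCDN2 and 178 after 2 doses of CDN2 20 µg, the reverse of their order in CPM.

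**Figure D3:**
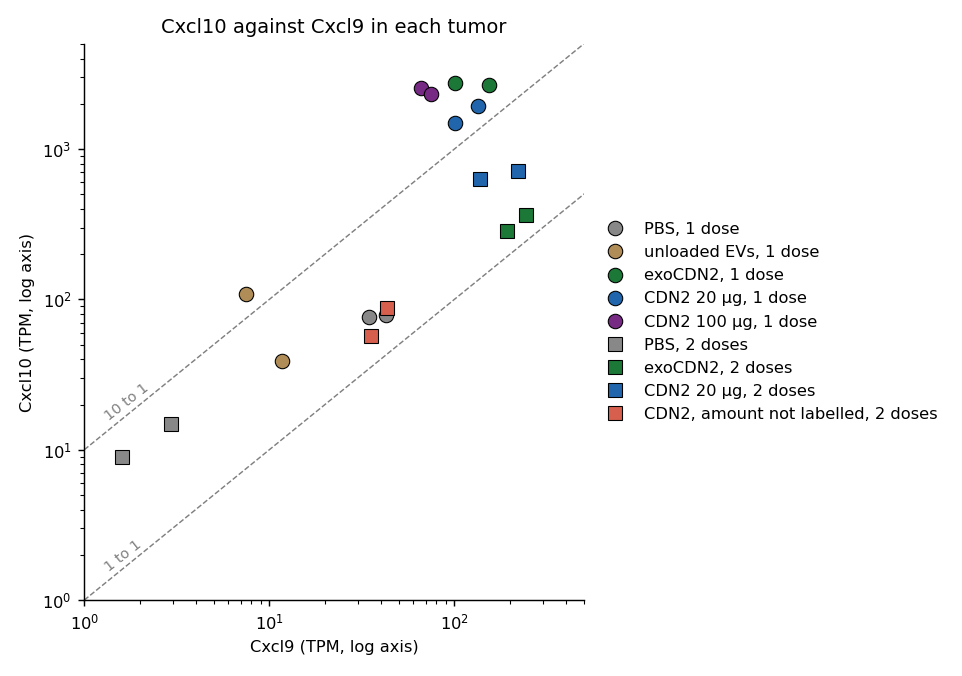
Cxcl10 against Cxcl9 in each tumor, both in TPM on log axes, with circles for 1 dose, squares for 2 doses and dashed lines at ratios of 1 and 10. The 1-dose agonist tumors lie above the line of 10, at ratios from 14.4 to 38.6, and the 2-dose agonist tumors lie between the lines, at ratios from 1.49 to 4.61.

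Ligand and receptor were set against each other in each tumor as a ratio of TPM, added after seeing the data. Cxcl10 exceeded Cxcr3 by 432- to 1040.0-fold in the 1-dose agonist tumors, by 92.6- and 38.5-fold after 2 doses of exoCDN2, and by 842- and 322-fold after 2 doses of CDN2 20 µg. In PBS tumors the ratio was 9.91 and 11.3 after 1 dose and 1.41 and 0.732 after 2 doses. The agonist tumors of labelled amount lay above all PBS tumors. The Cxcl9 to Cxcr3 ratio was under 1 in both of the later PBS tumors, at 0.278 and 0.131, and in 1 EV tumor, at 0.818, and reached 257 in a tumor given 2 doses of CDN2 20 µg. The Cxcl11 to Cxcr3 ratio was 0.00726 to 0.126 in the PBS, EV and unlabelled-amount tumors. With a labelled amount of agonist it was 0.983 in 1 tumor given 2 doses of exoCDN2 and 2.79 to 43.4 in the others. With the longest coding transcript the tumor at 0.983 stood at 2.36 and the later PBS tumor at 0.732 for Cxcl10 at 1.21, so whether ligand or receptor was higher in these tumors depends on the length used. On the scale of log2(CPM + 1), which compares tumors and not the genes, Cxcl10 less Cxcr3 ran from 8.69 to 9.72 in the 1-dose agonist tumors and was 0.78 and -0.08 in the later PBS tumors. Over the 18 tumors, Pearson's r of log2(CPM + 1) with Cxcr3 was -0.80 for Cxcl9, -0.835 for Cxcl10 and -0.89 for Cxcl11, given as a description, because the tumors share groups and treatments. Between the ligands r was 0.80 for Cxcl9 with Cxcl10, 0.84 for Cxcl9 with Cxcl11 and 0.91 for Cxcl10 with Cxcl11.

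Cxcr3 is used as a mark of effector lymphocytes, so it was read beside markers of the cells that could carry it. The groups with the most T cell marker RNA were not those with the most Cxcr3. With 2 doses of exoCDN2, 13 of 14 T cell markers were called higher than with PBS, with a median log2 fold change of 4.22 against 0.01 over all genes, and all 7 NK cell markers were, with a median of 4.90 (11.2% of all genes called), while Cxcr3 stood at -1.05. With 2 doses of CDN2 20 µg, 11 of 14 T cell and 6 of 7 NK cell markers were called higher, where 30.4% of all genes were called, and Cxcr3 fell. The T cell markers summed to 25.3 and 30.4 CPM there, to 7.33 and 7.09 CPM in PBS tumors of 2 doses and to 17.3 and 22.1 CPM in PBS tumors of 1 dose. Between the schedules their median was -2.41 in PBS tumors, 0.185 with CDN2 20 µg, and 3.34 with exoCDN2, where 12 of 14 were called higher beside 7.32% of all genes. Cd3e, a chain of the T cell receptor complex, read 3.80 and 2.495 CPM with 2 doses of exoCDN2 and 0.102 and 0.131 CPM in the PBS tumors of that schedule, which held the most Cxcr3. Cd8a, the co-receptor of cytotoxic T cells, read 11.96 and 9.61 CPM with 2 doses of exoCDN2 against 0.388 and 0.153 CPM with PBS. The groups did not overlap in either gene, and their order was the reverse of that for Cxcr3. With CDN2 100 µg, where Cd3e read 0.0244 and 0.0989 CPM and 6 of 14 T cell markers were called lower (2.5% of all genes called), Cxcr3 read 2.98 and 2.37 CPM.

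Across the 18 tumors the median r with Cxcr3 was -0.12 over the 14 T cell markers, -0.25 over the 7 NK cell markers and 0.67 over the 7 melanoma markers, beside 0.02 over all other tested genes. The melanoma markers summed to 23530.0 and 23870.0 CPM in the later PBS tumors, where Cxcr3 was highest, and to 12880.0 and 7409 CPM in the tumors given 2 doses of CDN2 20 µg, where it was lowest. After 1 dose they do not part the same way. They summed to between 22340.0 and 22360.0 CPM with CDN2 20 µg and between 20280.0 and 20770.0 CPM with PBS, while Cxcr3 was lower with CDN2. The neutrophil markers, median r -0.85, summed to between 196 and 864 CPM in the tumors given 2 doses of CDN2 20 µg and to between 1.55 and 1.96 CPM in the PBS tumors of that schedule. The median r was -0.505 over the macrophage and monocyte markers and -0.695 over the plasmacytoid dendritic cell markers. After 2 doses the macrophage and monocyte sums were 613 to 1168 CPM with CDN2 20 µg. They were 632 to 937 CPM with exoCDN2 and 218 to 259 CPM with PBS. The part of any cell type in the Cxcr3 values was not tested.

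**Figure D4:**
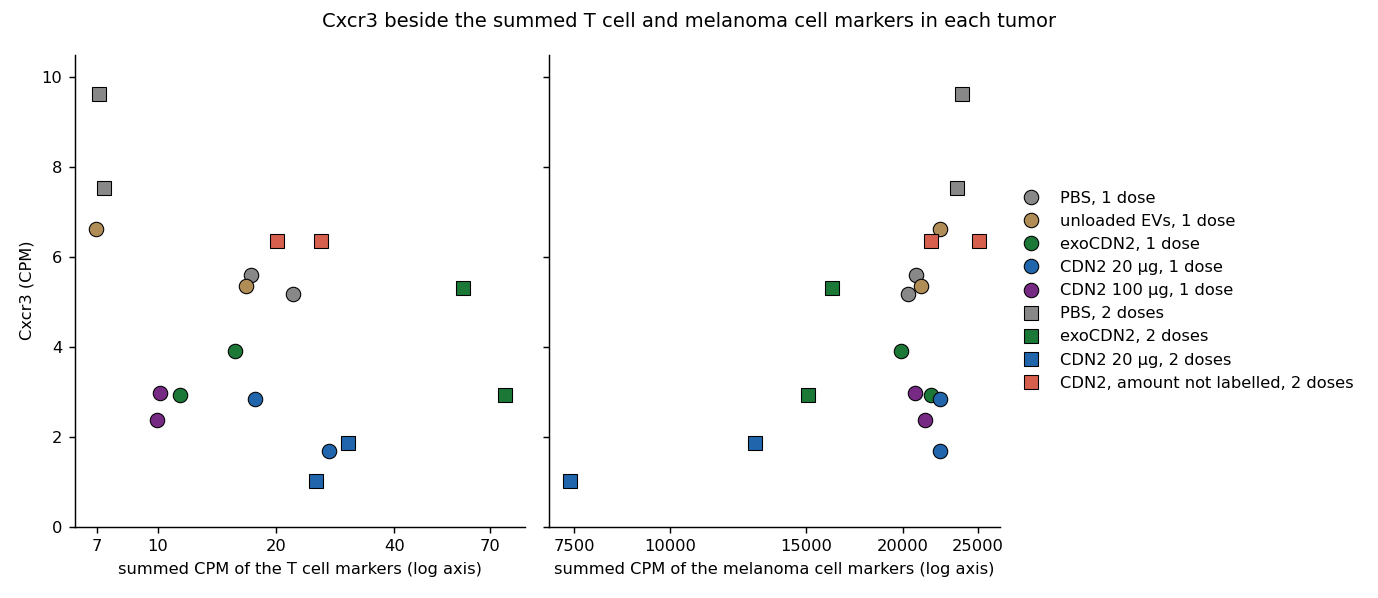
Cxcr3 in CPM (vertical axis) against the summed CPM of 14 T cell markers (left) and 7 melanoma markers (right), both on log axes, 1 point per tumor, circles for 1 dose and squares for 2 doses. The tumors with the largest T cell sums, 59.7 and 76.4 CPM after 2 doses of exoCDN2, hold less Cxcr3 than the PBS tumors of 2 doses, whose sums are 7.09 and 7.33 CPM.

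Most other chemokine receptors of lymphocytes that were called stood higher with 2 doses of agonist. Of 11 listed, 8 were tested. With 2 doses of exoCDN2, 3 were called higher and none lower, where 11.2% of all genes were called. Cxcr6, a receptor of tissue-resident and effector T cells, rose by 4.29 ± 0.68. It read 6.135 and 4.595 CPM there against 0.429 and 0.1095 CPM with PBS, so the groups did not overlap. With 2 doses of CDN2 20 µg, 5 were called higher and 1 lower, where 30.4% of all genes were called, with Cxcr6 at 2.58 ± 0.68. Cxcr6 read 2.02 and 1.30 CPM there, which overlapped PBS tumors of 1 dose, at 0.831 and 1.525 CPM. The 1 lower was Cx3cr1, the fractalkine receptor, at -3.22 ± 0.74, which also fell after 1 dose of exoCDN2 and of CDN2 100 µg. Tbx21, which encodes T-bet, a factor known to drive Cxcr3 in T cells, rose by 4.61 ± 0.51 with 2 doses of exoCDN2 and by 2.55 ± 0.53 with 2 doses of CDN2 20 µg, in tumors whose Cxcr3 was below that of PBS. It read 2.51 and 1.75 CPM with exoCDN2 and 0.449 and 0.557 CPM with CDN2 20 µg, against 0.0817 and 0.0876 CPM with PBS, where it rested on 4 expected counts in each tumor. PBS tumors of 1 dose read 0.416 and 0.773 CPM, a range that holds both CDN2 20 µg values.

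The genes upstream of the ligands were taken from a list of 20 interferon, receptor and signalling genes, all tested. After 1 dose, 7 were called higher with exoCDN2, 7 with CDN2 20 µg and 6 with CDN2 100 µg, and none lower, where 2.81%, 3.26% and 2.5% of all genes were called. Ifnb1, the type I interferon that STING induces, read 23.9 and 19.9 CPM with exoCDN2, 13.9 and 54.4 CPM with CDN2 20 µg and 40.3 and 36.4 CPM with CDN2 100 µg, against 0.131 and 0.119 CPM with PBS. After 2 doses 9 were called higher with exoCDN2, 10 with CDN2 20 µg and 6 with the unlabelled amount, where 11.2%, 30.4% and 0.959% of all genes were called. Ifnb1 then read 0.136 and 0.0423 CPM with exoCDN2 and 10.4 and 1.06 CPM with CDN2 20 µg, and was listed at 0 in both PBS tumors. The fall of Ifnb1 between the schedules in exoCDN2 tumors was -7.99 ± 1.14 (adjusted p = 0.00162), in the tumors where Cxcl10 also fell. Ifng, the interferon of T and NK cells, was called higher with 2 doses of exoCDN2 (7.44 ± 1.30) and of CDN2 20 µg (5.94 ± 1.35) and was not called against PBS after 1 dose (2.33 ± 0.83 with exoCDN2 and 2.43 ± 0.83 with CDN2 20 µg). Its level with agonist was not called different between the schedules (-0.61 ± 0.78 and -2.19 ± 0.84). It read 4.501 and 8.10 CPM after 1 dose of exoCDN2 and 5.10 and 3.19 CPM after 2, and 1.66 and 11.8 CPM after 1 dose of CDN2 20 µg and 1.01 and 1.86 CPM after 2. PBS tumors read 0.941 and 1.545 CPM after 1 injection and 0.0408 CPM and a listed 0 after 2, so the 2-dose folds rest on few counts in PBS and are no bound. Irf1, an interferon-induced transcription factor, read 884 and 1327 CPM after 1 dose of CDN2 20 µg and 440.2 and 299 CPM after 2 doses. In PBS tumors Irf1 was lower after 2 injections than after 1, at -2.84 ± 0.30, as Cxcl9 and Cxcl10 were.

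Of 7 further genes of the axis, a further ligand, decoy receptors, the protease that trims the ligands and signalling partners of the receptor, 1 was called higher with 2 doses of exoCDN2 (11.2% of all genes called) and 5 with 2 doses of CDN2 20 µg (30.4%), none lower. Dpp4, the protease that clips CXCL10 at its start, rose by 2.24 ± 0.66 and 2.48 ± 0.67. Its tumors were far apart, at 5.67 and 2.64 CPM with exoCDN2 and 7.96 and 1.99 CPM with CDN2 20 µg. PBS tumors of 2 doses read 0.919 and 0.832 CPM, and the EV tumors read 0.907 and 3.95 CPM. Ackr3, which takes up CXCL11 without signalling through G proteins, read 120.5 and 21.7 CPM with 2 doses of CDN2 20 µg against 4.18 and 4.29 CPM with PBS and 17.6 and 6.44 CPM with exoCDN2. Pf4, the platelet chemokine CXCL4, rose by 2.70 ± 0.34 with 2 doses of CDN2 20 µg. After 1 dose 1 of the 7 was called, Ackr1 with exoCDN2, where 2.81% of all genes were called. Ackr1 encodes an erythrocyte and venule scavenger of inflammatory chemokines.

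Ligands of other receptors rose beside those of CXCR3. Of 7 CC chemokine ligands, 6 were called higher with each agonist group of 1 dose, 6 with 2 doses of exoCDN2, 7 with 2 doses of CDN2 20 µg and 3 with the unlabelled amount. All genes were called at 2.81%, 3.26% and 2.5% with exoCDN2, 20 µg and 100 µg after 1 dose, and at 11.2%, 30.4% and 0.959% with exoCDN2, 20 µg and the unlabelled amount after 2. Ccl5, a chemokine that draws T cells and monocytes, read 97.2 and 83.5 CPM with 1 dose of exoCDN2, 217 and 203 CPM with 2, and 741 and 306 CPM with 2 doses of CDN2 20 µg, against 1.92 and 1.42 CPM with PBS of 2 doses. Of 8 other CXC ligands, 3, 2 and 3 were called higher with 1 dose of exoCDN2, CDN2 20 µg and CDN2 100 µg. With 2 doses, 6 were called higher with exoCDN2 and 7 with CDN2 20 µg, against the same shares of all genes.

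The 5 genes whose pattern was most like each member were found by r of log2(CPM + 1) over the 18 tumors. For Cxcl9 they were Gbp3 (0.98), Gbp2, Xaf1, Gbp9 and Ube2l6 (0.97). The GBP genes encode interferon-induced GTPases. For Cxcl10 they were Rsad2 (0.99), Ifit3b, Ifit3, Cmpk2 and Mx2 (0.98), antiviral genes of the type I interferon response. For Cxcl11 they were Trex1 (0.98), Bcl3, Ifit1bl2, Gm49342 and Bmp2 (0.97). Among the other members, Cxcl11 ranked 89 of all genes by likeness to Cxcl10, and Cxcl9 ranked 341. For Cxcr3 the most alike genes were Cbx2 (0.96), a Polycomb subunit, Klf15, Gbx2, Lpar5 and 2010008C14Rik (0.94), and none of these is a lymphocyte marker on the lists used here.

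The genes near the ligand cluster were read in the same comparisons. Of the 12 other protein-coding genes within 250 kb, 9 were tested. After 1 dose their log2 fold changes against PBS ran from -0.93 to 0.86 with exoCDN2, from -0.52 to 0.27 with CDN2 20 µg and from -1.11 to 1.06 with CDN2 100 µg, and edgeR made no call, with 4, 0 and 2 of the 9 at an unadjusted p under 0.05. After 2 doses, 2 of the 9 were called higher with exoCDN2, where 11.2% of all genes were called, and 3 with CDN2 20 µg, where 30.4% were. Art3, which runs through Cxcl10 and Cxcl11 on the other strand, rose by 1.28 ± 0.32 with exoCDN2 and by 2.27 ± 0.33 with CDN2 20 µg. It read between 4.70 and 39.0 CPM over all tumors, and 7.78 and 4.79 CPM in the later PBS tumors, where Cxcl11 read 0.143 and 0.153 CPM. Whether ligand reads add to Art3, or Art3 reads to the ligands, was not tested. Stbd1 rose by 4.12 ± 0.70 with 2 doses of CDN2 20 µg, with a level of at most 15.2 CPM in any tumor. U90926, called higher in both comparisons, ran from 0 to 5.77 CPM over all tumors, and no fold is given because both PBS tumors of 2 doses are listed at 0.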

How the data were processed

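Per the labels and the study's methods, mRNA from whole tumors was sequenced as paired reads, and the authors filtered the reads, aligned them with OSA to GRCm38 and deposited RSEM expected counts per Ensembl gene, not normalized. Strandedness is not given in the sources used here. Between 21.2% and 28.9% of values above 0 were not whole, so expected counts were rounded for testing. All 18 tumors entered 1 edgeR 4.0.16 quasi-likelihood fit (R 4.3.3) with 9 groups, TMM factors, filterByExpr (minimum count 10, minimum total 15) and Benjamini-Hochberg adjustment over 17110 genes. A call needs a ratio over 2 besides an adjusted p under 0.05, the thresholds of the authors. CPM used TMM-scaled totals, the log scale a pseudocount of 1, and TPM the longest transcript of the GENCODE annotation. On simulated counts for exoCDN2 against PBS after 1 dose the fit was tested before use, and the outcome of that test is not given here. An exact permutation test of 2 tumors against 2 cannot give a p below 0.333, so none was run. Alternatives were DESeq2 1.42.0, RLE factors, no count filter, fewer tumors in the fit, pooled PBS tumors, a replicate block, no limit on the ratio, other pseudocounts and each tumor left out. The longest coding transcript was added after seeing the data. Of 50600 gene identifiers, 50376 matched a symbol. The 4 genes, the marker and pathway lists and the tests were chosen with earlier results of these data known. Named genes were the 4 members, the 5 genes most like each, fixed list genes that bear on the axis, the gene of smallest p each way in a list, and called neighbours. Ackr1, the only call of its list after 1 dose, was named after its values were seen. Some genes of the lists, and 1 further motif searched in the promoter windows, are not reported here.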

Additional observations from a re-analysis of the deposited data

Results flagged for a closer look

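The change of Cxcl9 against PBS differed between the schedules with exoCDN2, by a log2 difference of 4.86 ± 0.54 (edgeR's interaction term, adjusted p = 0.00019). Its change was 6.57 after 2 doses and 1.70 after 1, higher than PBS in 4 of 4 exoCDN2 tumors. The same difference was 5.0 ± 0.54 with CDN2 20 µg (adjusted p = 0.000344), from 6.85 and 1.86, higher than PBS in 4 of 4 tumors. Both share the PBS tumors, in which Cxcl9 was lower after 2 injections by a log2 fold change of -4.08.

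The change of Cxcl10 against PBS differed between the schedules with CDN2 20 µg, by 1.64 ± 0.50 (edgeR's interaction term, adjusted p = 0.0375), from 6.36 after 2 doses and 4.72 after 1. With each tumor left out in turn the difference ran from 1.34 to 1.94, and the call was lost in several of these fits. Cxcl10 itself was lower after 2 doses of CDN2 20 µg than after 1, by a log2 fold change of -1.05, and lower in PBS tumors by -2.69. The value of -1.05 ran from -1.34 to -0.793 with each tumor left out. Its call was lost in most fits without a CDN2 20 µg tumor, and in a fit of only the groups compared.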

How the results depend on the processing

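The ligand calls for Cxcl10 and Cxcl11 against PBS of the same schedule, with exoCDN2, 20 µg and 100 µg, held under every alternative run, but with pooled PBS tumors Cxcl10 went from 4.75 to 2.86 (exoCDN2) and 6.36 to 4.46 (20 µg) after 2 doses, and from 5.11 to 5.90, 4.72 to 5.51 and 4.98 to 5.77 (exoCDN2, 20 µg, 100 µg) after 1. Against PBS after 1 dose, 3 calls became 2 (Cxcl9 lost, at 2.62, adjusted p = 0.0911) for exoCDN2 with pooled PBS tumors, and for exoCDN2 and 20 µg with several tumors left out in turn, while 20 µg gave 4 (Cxcr3 gained) with DESeq2 and no filter and lost Cxcl9 (2.77, adjusted p = 0.0605) but gained Cxcr3 with pooled PBS, and 100 µg went from 2 to 3 with pooled PBS. ExoCDN2 after 2 doses went from 3 to 4 (Cxcr3) with DESeq2, RLE factors, no filter and without exoCDN2 replicate 2. The unlabelled amount went from 3 to 2 (Cxcl11 lost) with the block and with 3 of its tumors or PBS tumors left out, and the schedule difference with 20 µg from 2 to 3 with DESeq2 and no filter. The number of the 4 genes called moved by more than 1.5 times as follows. Against PBS, unloaded EVs went from 0 to 1 with DESeq2 and with no count filter, and the unlabelled amount from 3 to 0 with pooled PBS tumors. For exoCDN2 against CDN2 20 µg after 2 doses it went from 3 to 0 in a fit of only the groups compared, and from 0 to 3 with each tumor left out. Between schedules, PBS went from 2 to 1 or 2 with each tumor left out, exoCDN2 from 1 to 2 with no filter and with only the groups compared, and CDN2 20 µg from 2 to 0 with only the groups compared, to 1 with the replicate block, and to 0 to 2 with each tumor left out. The schedule difference with CDN2 20 µg went from 2 to 1 with only the groups compared, and to 1 to 4 with each tumor left out.

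Same-numbered tumors did not deviate together in a steady way (r from -0.177 to 0.304 over 36 pairs of groups, mean 0.016). The highest r was between exoCDN2 and CDN2 20 µg after 2 doses. With 2 tumors a group, these values cannot exclude that same-numbered tumors share more than a number. The block took exoCDN2 against CDN2 20 µg after 1 dose from 41 genes to 2, and lost 2 member calls, Cxcl11 at 3.20 (unlabelled amount against PBS, adjusted p = 0.0571) and at 1.18 (CDN2 20 µg between schedules, adjusted p = 0.071).

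Values that were not called changed sign. With pooled PBS tumors, EVs against PBS gave 0.729 for Cxcl10 and -0.22 for Cxcr3. With each tumor left out, Cxcl10 in that comparison ran from -0.945 to 0.478 and Cxcr3 from -0.0107 to 0.30. Cxcl9 for exoCDN2 against CDN2 20 µg ran from -0.512 to 0.15 after 1 dose and from -0.671 to 0.29 after 2. Cxcr3 ran from -0.0954 to 0.656 for 100 against 20 µg and from -0.218 to 0.635 for exoCDN2 between schedules, and the Cxcl11 schedule difference with exoCDN2 from -0.612 to 0.257.

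Counts over all genes moved by more than 1.5 times as follows. With DESeq2 they were 34 against 0 (EVs), 650.0 against 427 (100 µg against PBS), 320.0 against 41 (exoCDN2 against 20 µg, 1 dose), 355 against 84 (100 against 20 µg), 357 against 164 (unlabelled against PBS) and 377 against 217 (PBS between schedules). With no filter the counts in the same order were 204, 1116, 634, 721, 713 and 727, and 1107 against 480.0, 1030.0 against 557 and 1051 against 499 for exoCDN2 and 20 µg against PBS and exoCDN2 against EVs after 1 dose, and 1922 against 1144 for the schedule difference with exoCDN2. With only the groups compared they were 1300.0 (exoCDN2 against PBS, 1 dose), 1352 (100 µg against PBS), 354 (exoCDN2 against 20 µg, 1 dose), 335 (100 against 20 µg), 3060.0 against 5199 (20 µg against PBS, 2 doses), 276 (unlabelled against PBS), 30 against 3284 (exoCDN2 against 20 µg, 2 doses), 2350.0 against 4305 (unlabelled against 20 µg), 629 against 3516 (20 µg between schedules) and 1179 against 2683 (its schedule difference). With 16 tumors exoCDN2 against 20 µg after 1 dose gave 103, and with pooled PBS the counts were 2 (EVs), 917 (20 µg, 1 dose) and 0 (unlabelled). The causes were not tested. Cxcl11 in controls and Cxcr3 after 2 doses of 20 µg rest on few counts, and 2 tumors a group limit every interval.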
